A study of Mus musculus with 24 samples.

Results

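The genes described are 10 that handle iron, chosen by symbol: Fth1, Ftl1, Hmox1, Slc11a1, Slc40a1, Cp, Tfrc, Steap3, Steap4 and Hfe. They are 10 of the 46477 symbols in the deposited count table, and all 10 passed the filter on low counts that left 14325 genes. RNA was sequenced from granulocytic myeloid-derived suppressor cells (G-MDSCs), immature neutrophil-like cells, taken from mouse liver with magnetic beads as CD11b+Ly6G+ non-parenchymal cells. The mice were wild-type (WT) BALB/C males of 8 weeks, which had either a 70% hepatectomy or a sham operation, a midline laparotomy with no liver removed. Cells were taken on postoperative day (POD) 1, 2, 3 or 4, which gives 8 groups of 3 libraries: hepatectomy on each of the 4 days and sham on each of the 4 days. All groups share strain, sex, genotype and isolation, and there was no unoperated group. The labels do not say that replicates came from separate animals, so p-values measure the spread between these libraries, which may be in part technical.

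Iron enters many cells bound to transferrin through the transferrin receptor, is reduced to its ferrous form by metalloreductases, and is stored in ferritin, a shell of heavy and light chains. It also enters phagocytes as hemoglobin, whose heme is broken down by heme oxygenase, and it leaves cells through ferroportin with the help of a ferroxidase. In the liver, macrophages recycle iron from red cells, and neutrophils carry proteins that withhold iron from microbes. The iron regulatory proteins bind a short hairpin in messenger RNA, the iron-responsive element, when iron is scarce: in a 5′ untranslated region (UTR) they block translation, and in the 3′UTR of the transferrin receptor they protect the transcript from decay.

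Iron-responsive elements are shown because they mark which of the 10 genes are also known to be controlled by iron after transcription. Counts of a transcript do not measure its translation. A search of the annotated UTRs on the transcript strand, for a bulged C, 5 bases of any kind, the loop CAGTGN and 5 more bases that pair with the first 5 (G-T pairs allowed), found the element in 4 of the 10 genes. The sequences below are in DNA letters from the GRCm38 transcripts of GENCODE M21, each 27 bases long, with the bulged C and the CAGTGN loop in capitals. The first lies in the 5′UTR of Fth1 (chr19:9982733-9982759, plus strand), the next in the 5′UTR of Ftl1 (chr7:45459780-45459806, minus strand) and the next in the 5′UTR of Slc40a1 (chr1:45925466-45925492, minus strand). The 4 in the 3′UTR of Tfrc lie at chr16:32631220-32631246, chr16:32631599-32631625, chr16:32631664-32631690 and chr16:32631711-32631737, all on the plus strand.
Fth1: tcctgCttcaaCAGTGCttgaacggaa
Ftl1: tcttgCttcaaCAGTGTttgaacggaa
Slc40a1: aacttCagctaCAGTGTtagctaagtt
Tfrc site 1: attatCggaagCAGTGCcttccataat
Tfrc site 2: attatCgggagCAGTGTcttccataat
Tfrc site 3: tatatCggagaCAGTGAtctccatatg
Tfrc site 4: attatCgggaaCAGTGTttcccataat
The Fth1 and Ftl1 elements are identical at 25 of 27 bases. The same motif was found in the 5′UTR of 31 of 20899 genes (0.148%) and in the 3′UTR of 129 of 21685 genes (0.595%). A match is a description of the letters, and it does not show that the element was bound in these cells.

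The libraries held 10390216 to 16949088 counts, and 16231 to 19581 symbols were detected in each. Levels below are CPM (reads of a gene as a share of the library) on totals scaled by the trimmed mean of M-values (TMM). The scaling factors were 0.462 to 1.43, with the lowest in the hepatectomy POD1 libraries. The libraries differed in marker content: 9 of the 24 had a summed level of 17 sinusoidal endothelial markers of 1400 to 6320 CPM, and the other 15 had 18700 to 36300 CPM. The 16 neutrophil markers, none of them at 0 in a hepatectomy or sham POD1 group, summed to 50950 to 276800 CPM in the 9 and to 3803 to 31710 CPM in the 15, and in 12 of the 24 libraries the endothelial sum exceeded the neutrophil sum. Of hepatectomy libraries, the 9 included all 3 of POD1 and the first replicate of both POD3 and POD4. Of sham libraries, they included POD1 replicates 1 and 2 along with POD4 replicates 2 and 3. The cell label therefore holds unevenly over the libraries, and in such bulk RNA fewer cells of a type and less RNA per cell cannot be told apart.

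At POD1, transcripts of heavy-chain ferritin, heme oxygenase 1, the phagosomal metal transporter and ceruloplasmin were higher after hepatectomy than after sham, and those of ferroportin, Hfe and Steap3 were lower. By edgeR's quasi-likelihood test with Benjamini-Hochberg adjustment over all genes, 7 of the 10 passed an adjusted p of 0.05, 4 higher and 3 lower. Over all genes tested, 40.9% passed at POD1, 13% higher and 28% lower, so that calls were common on that day. The median log2 fold change, hepatectomy over sham, was 0.70 over the 10 genes and -0.42 over all genes tested. In 7 of the 10 the 3 hepatectomy libraries did not overlap the 3 sham libraries, against 49.4% of all genes. Without sham POD1 replicate 3, the sham library rich in endothelial transcripts, 4 of the 10 were called, Hmox1 higher and Slc40a1, Hfe and Steap3 lower, against 22.6% of all genes in that fit. The share of all genes called fell steeply on later days, and none of the 10 passed on POD2, POD3 or POD4.

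**Figure D1:**
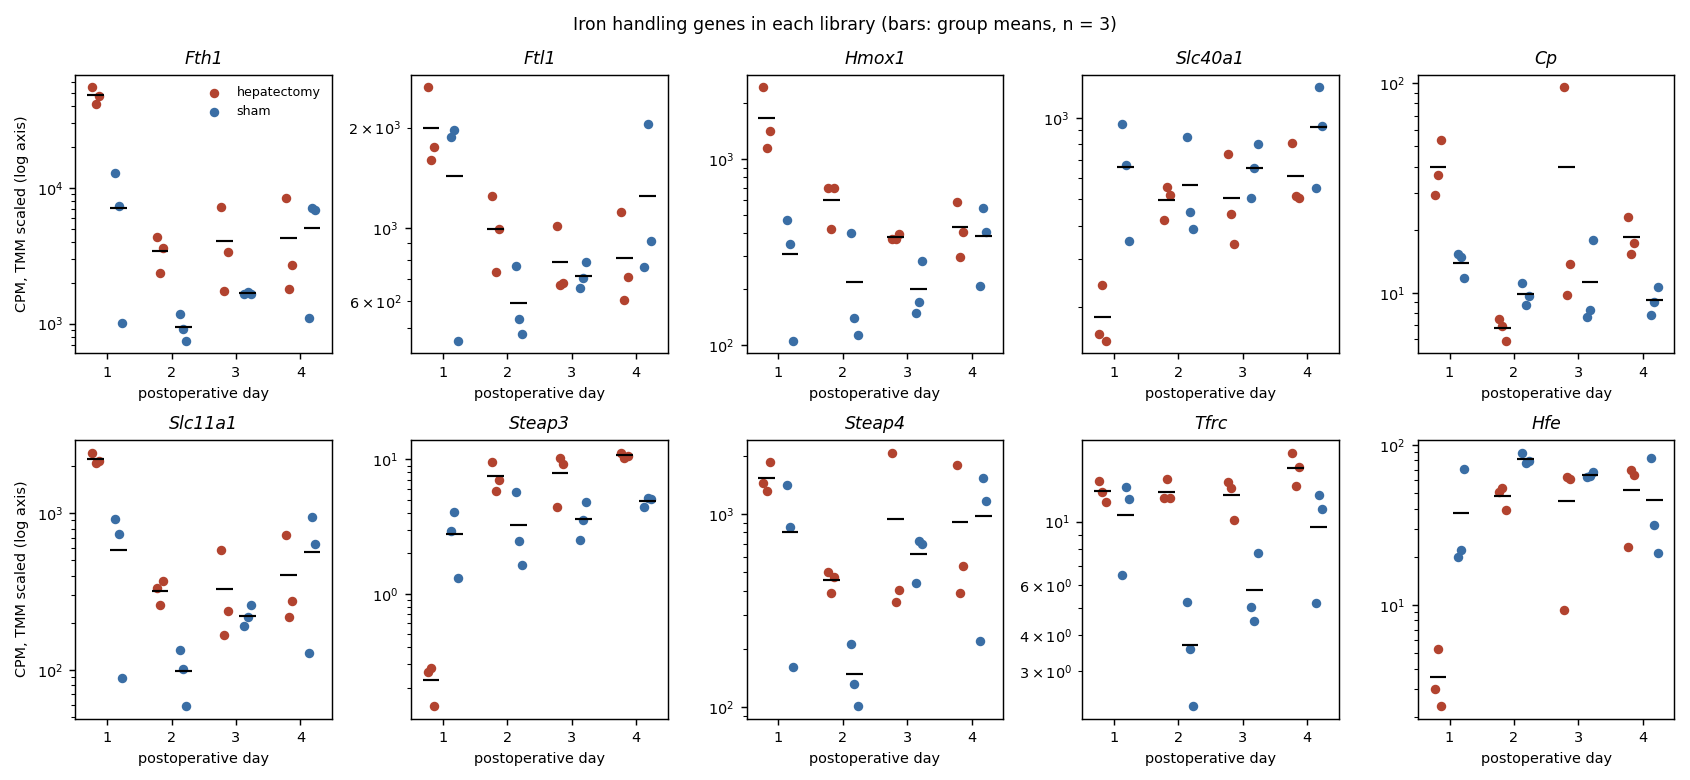
Level of each of the 10 genes in each library (TMM-scaled CPM, log axis) by postoperative day, with hepatectomy left of sham on each day; each point is 1 library and bars are means of 3. The 3 hepatectomy POD1 libraries stand apart for Fth1, at 41790 to 55140 CPM, and for Steap3, at 0.146 to 0.279 CPM.

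Fth1, on chromosome 19 (9980598 to 9985098, plus strand), encodes the heavy chain of ferritin, which oxidizes iron as it is stored. It was measured at 55140, 41790 and 47330 CPM in the hepatectomy POD1 libraries, against 12880, 7319 and 1003 CPM in the sham POD1 libraries. All 3 hepatectomy libraries were above all 3 sham libraries, and the sham libraries themselves spread widely. This gave a log2 fold change of 2.77 ± 0.88 (SE), with an adjusted p of 0.019 by edgeR's quasi-likelihood test. Without sham POD1 replicate 3 it was 2.25, with an adjusted p of 0.0629. Over all 24 libraries Fth1 made up 0.107% to 2.54% of the counts, so it was among these 10 the gene with the most reads.

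Ftl1, on chromosome 7 (45457944 to 45459884, minus strand), encodes the light chain of ferritin, which helps the iron core form. Its level was 2647, 1595 and 1753 CPM in the hepatectomy POD1 libraries, against 1872, 1967 and 458 CPM in the sham POD1 libraries. These groups overlap. The log2 fold change was 0.48 ± 0.48 with a 95% interval of -0.531 to 1.49, and it did not pass the test (adjusted p = 0.426, edgeR's quasi-likelihood test). Scaling by library size alone turned the value to -0.31.

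The ratio of Fth1 to Ftl1 counts within a library does not depend on library scaling. It averaged 24.7 ± 3.36 in hepatectomy POD1 libraries and 4.26 ± 2.39 in sham POD1 libraries (SD, n = 3 each). The lowest hepatectomy POD1 library, at 20.8, lay above the highest sham POD1 library, at 6.88. At POD2 the ratio was 3.45 ± 0.239 after hepatectomy and 1.59 ± 0.0915 after sham, again without overlap. At POD3 it was 4.85 ± 2.24 after hepatectomy and 2.34 ± 0.216 after sham, and at POD4 4.75 ± 2.42 after hepatectomy and 4.13 ± 3.08 after sham (SD, n = 3 each). The libraries did not overlap on POD1, POD2 or POD3. A two-sided exact permutation test gave p = 0.1 on each of those days, the smallest that 3 libraries against 3 allow, and p = 0.7 at POD4 (Benjamini-Hochberg adjusted over the 4 days, 0.133 and 0.7). Per kilobase of merged exon, the mean level at POD1 was 13860 CPM per kb for Fth1 and 1491 CPM per kb for Ftl1 after hepatectomy, and 2037 and 1069 CPM per kb after sham. The order was the other way at sham POD2, with 271.5 CPM per kb for Fth1 and 443.4 CPM per kb for Ftl1, and at sham POD3, with 481.4 and 534.8 CPM per kb. This order depends on the length used. The exons of all annotated transcripts, merged, came to 3469 bases for Fth1 and 1340 bases for Ftl1. In counts Fth1 exceeded Ftl1 in every library, with the lowest ratio, 1.43, in sham POD4 replicate 1. It does not show that light-chain transcripts outnumbered heavy-chain ones. Reads shared with ferritin pseudogenes may be split in ways the counting settings do not show: Fth-ps2 had 231 counts in all, beside 2079374 for Fth1.

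**Figure D2:**
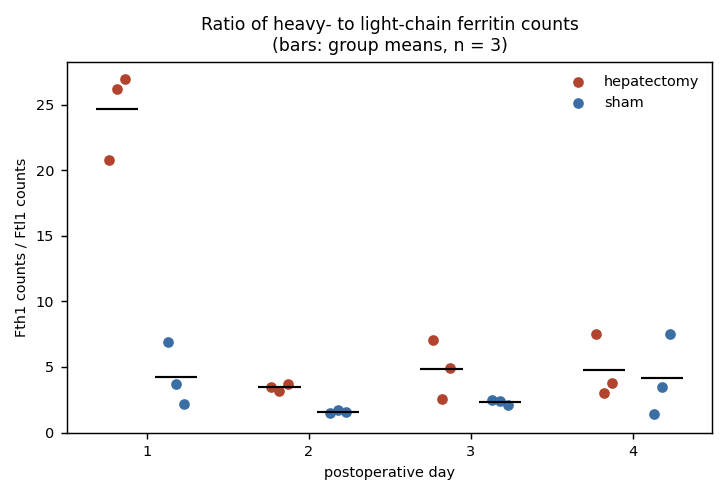
Ratio of Fth1 counts to Ftl1 counts in each library by postoperative day, hepatectomy left of sham; points are libraries and bars are means of 3. The hepatectomy POD1 libraries lie at 20.8 to 27, and the sham POD1 libraries at 2.19 to 6.88.

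Hmox1, on chromosome 8, encodes heme oxygenase 1, which opens the heme ring and releases its iron. Its level was 2443, 1152 and 1418 CPM in the hepatectomy POD1 libraries, against 470, 348 and 105.5 CPM in the sham POD1 libraries. The lowest hepatectomy library was above the highest sham library. Its log2 fold change was 2.44 ± 0.56 (adjusted p = 0.00347, edgeR's quasi-likelihood test), and the call held in all 33 alternatives tried, with adjusted p from 4.08e-05 to 0.0436. Many of the 33 left out a library of POD2 to POD4. Such a library bears on the POD1 comparison only through the shared filter, scaling and spread.

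Slc11a1 encodes NRAMP1, which moves iron and manganese out of phagosomes in macrophages and neutrophils. It lies on chromosome 1 (74375195 to 74386062, plus strand). It was at 2444, 2099 and 2153 CPM in the hepatectomy POD1 libraries, against 918.8, 732.8 and 88.49 CPM in the sham POD1 libraries. The hepatectomy libraries were close to each other and above every sham library, of which replicate 3 was far below the other two. In the fit its log2 fold change was 1.94 ± 0.73 (adjusted p = 0.0405, edgeR's quasi-likelihood test). The call was lost in 6 of 33 alternatives, among them leaving out any single hepatectomy POD1 library or sham POD1 replicate 2 or 3, with adjusted p up to 0.13.

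Slc40a1 encodes ferroportin, the iron exporter of the cell membrane, which is abundant in macrophages that recycle red cells. It lies on chromosome 1 (45908068 to 45926523, minus strand). Its level was 158.5, 241.5 and 150.3 CPM in the hepatectomy POD1 libraries, against 950.4, 666.8 and 349.5 CPM in the sham POD1 libraries. Every hepatectomy library was below every sham library. Its log2 fold change was -1.84 ± 0.44 (adjusted p = 0.00404, edgeR's quasi-likelihood test) and stayed called in all 33 alternatives.

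Cp encodes ceruloplasmin, a copper ferroxidase that hepatocytes secrete and that oxidizes iron as it leaves cells. Its level was 29.2, 36.58 and 53.6 CPM in the hepatectomy POD1 libraries, against 15.27, 14.77 and 11.75 CPM in the sham POD1 libraries. The groups did not overlap. Cp had a log2 fold change of 1.51 ± 0.58 (adjusted p = 0.0428, edgeR's quasi-likelihood test), a call lost in 14 of 33 alternatives, with adjusted p up to 0.344. Hepatocyte markers summed to 95.66 to 233 CPM after hepatectomy and 137.7 to 232.3 CPM after sham at POD1, and none of the 10 hepatocyte markers was called on that day. The part of hepatocyte RNA in the Cp result at POD1 was not tested. Cp overlaps Hps3 on the opposite strand, and whether counting used strand is not given in the sources used here; Hps3 averaged 57.4 ± 5.6 CPM after hepatectomy and 46.0 ± 17.7 CPM after sham at POD1 (SD, n = 3 each; log2 fold change 0.32, adjusted p = 0.486, edgeR's quasi-likelihood test).

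Tfrc encodes transferrin receptor 1, the main entry of transferrin-bound iron, and carries the 4 elements printed above. At POD1 it did not differ past the test: 13.89, 12.7 and 11.68 CPM in the hepatectomy libraries, against 6.514, 13.2 and 11.95 CPM in the sham libraries. Sham replicate 1 was low and the other values overlapped. The log2 fold change was 0.27 ± 0.34 with a 95% interval of -0.455 to 0.996 (adjusted p = 0.538, edgeR's quasi-likelihood test), and by library size alone it was -0.80.

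Steap3 and Steap4 encode metalloreductases that reduce ferric iron; STEAP3 is known from red-cell precursors, where it works beside the transferrin receptor in endosomes, and STEAP4 from adipose tissue and inflammation. Steap3 had 0.2596, 0.2792 and 0.146 CPM in the hepatectomy POD1 libraries, against 2.92, 4.062 and 1.317 CPM in the sham POD1 libraries. These hepatectomy values rest on 1 or 2 counts a library, 5 counts in all, beside 96 counts after sham. The ratio of summed counts, hepatectomy over sham, was 0.0947 with an exact 95% interval of 0.0301 to 0.229 that covers counting error only. The fitted log2 fold change was -3.53 ± 0.60 (adjusted p = 0.000339, edgeR's quasi-likelihood test), which depends on the prior count at so low a level.

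Steap4 had 1441, 1310 and 1847 CPM in the hepatectomy POD1 libraries, against 1410, 851.2 and 161.4 CPM in the sham POD1 libraries. The ranges overlapped, since sham replicate 1 lay within the hepatectomy range. The log2 fold change was 0.92 ± 0.78 (adjusted p = 0.349, edgeR's quasi-likelihood test).

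Hfe encodes the hemochromatosis protein, a membrane protein that binds the transferrin receptor and takes part in the control of hepcidin in hepatocytes. Its level was 2.985, 5.305 and 2.337 CPM in the hepatectomy POD1 libraries, against 19.99, 21.97 and 70.41 CPM in the sham POD1 libraries. All hepatectomy values were lower than all sham values, and sham replicate 3 was the highest. The log2 fold change was -3.40 ± 0.69 (adjusted p = 0.00147, edgeR's quasi-likelihood test), and it stayed called in all 33 alternatives.

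Marker genes of other cells differed beside these POD1 results, where 13% of all genes were called higher and 28% lower. Endothelial markers summed to 1630 to 1772 CPM after hepatectomy, against 1745 to 34510 CPM after sham, and 15 of the 17 were called lower and 0 higher. Kupffer cell and macrophage markers summed to 810.6 to 934.1 CPM after hepatectomy and to 1951 to 3016 CPM after sham, with 9 of 14 called lower and 1 higher; none of the 14 was at 0 in either group. Neutrophil markers summed to 233900 to 276800 CPM after hepatectomy and to 7446 to 124800 CPM after sham, with 2 of the 14 tested called higher and 0 lower. Monocyte markers summed to 30650 to 37820 CPM after hepatectomy and to 911.2 to 11840 CPM after sham, with 1 of the 8, Chil3, called higher and 3, Ccr2, Cx3cr1 and Fn1, called lower. B cell markers summed to 0.649 to 1.022 CPM after hepatectomy and to 19.32 to 34.62 CPM after sham, with all 6 called lower and 1 at 0 after hepatectomy. Stellate cell and fibroblast markers summed to 149.5 to 237.6 CPM after hepatectomy and to 296.6 to 393.5 CPM after sham, with 6 of 7 called lower and 0 higher. T cell and NK cell markers summed to 21.94 to 23.95 CPM after hepatectomy and to 5.825 to 47.39 CPM after sham, of the 3 tested 1 was called higher and 1 lower, and 2 of the 6 were at 0 after hepatectomy. Erythroid markers were low in both, at 22.8 to 34.9 CPM after hepatectomy and 31.9 to 61.8 CPM after sham, and 2 of the 9 were at 0 after hepatectomy. Of the 6 erythroid markers tested, 1 was called lower, Epor (log2 fold change -6.43, adjusted p = 0.00329, edgeR's quasi-likelihood test), and 0 higher. The part of these differences in the result for each iron gene was not tested.

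Sham POD1 replicate 1 had an endothelial sum of 1745 CPM, within the range of the hepatectomy POD1 libraries. Set against that 1 library, with no test, the hepatectomy POD1 mean of Fth1 was 3.73-fold higher, that of Hmox1 3.56-fold, that of Cp 2.61-fold and that of Slc11a1 2.43-fold. Tfrc was 1.96-fold higher. Slc40a1 was 5.18-fold lower, Hfe 5.64-fold lower and Steap3 12.8-fold lower, Steap3 on 1 or 2 counts in each hepatectomy POD1 library. Ftl1 and Steap4 differed little, at 1.07-fold and 1.09-fold. That sham library was not matched in other markers. Neutrophil markers summed to 233900 to 276800 CPM in the hepatectomy POD1 libraries and to 124800 CPM in it. In the same order, monocyte markers summed to 30650 to 37820 CPM and 11840 CPM. Kupffer cell and macrophage markers summed to 810.6 to 934.1 CPM and 2665 CPM, and B cell markers to 0.649 to 1.022 CPM and 19.32 CPM. Stellate cell and T cell sums also lay outside the hepatectomy range, while hepatocyte and erythroid sums lay within it. The part of these differences in the ratios was not tested.

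Across all 24 libraries, 4 of the 10 genes divided the 9 libraries with low endothelial sums from the other 15 without overlap, against 37.8% of all genes tested. Steap4 was at 851.2 to 2074 CPM in the 9 and 101.3 to 720.8 CPM in the 15, Slc11a1 at 579.3 to 2444 and 59.04 to 367.3 CPM, and Fth1 at 6831 to 55140 and 748.8 to 4357 CPM. Hfe ran the other way, at 2.337 to 31.45 CPM in the 9 and 39.4 to 89.59 CPM in the 15. Within the 9, the 3 hepatectomy POD1 libraries lay outside the range of the other 6 for Fth1, Slc11a1, Hmox1, Slc40a1, Hfe and Steap3, which is 6 of the 10, against 43.3% of all genes tested. Slc40a1, for example, was at 150.3 to 241.5 CPM in the hepatectomy POD1 libraries, against 666.8 to 1298 CPM in the other 6. Tfrc, Steap4, Ftl1 and Cp were not set apart in this way. Some marker sums were set apart as well. Neutrophil sums were 233900 to 276800 CPM in the hepatectomy POD1 libraries, against 50950 to 167400 CPM in the other 6. Monocyte sums were 30650 to 37820 against 6836 to 12910 CPM. Kupffer cell and macrophage sums were 810.6 to 934.1 against 1250 to 5648 CPM, and B cell sums 0.649 to 1.022 against 5.354 to 36.96 CPM. The other marker sums overlapped. The part of these differences in the gene ranges was not tested. The 9 libraries were grouped by marker content and not by the study's design, so these ranges are descriptions.

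**Figure D3:**
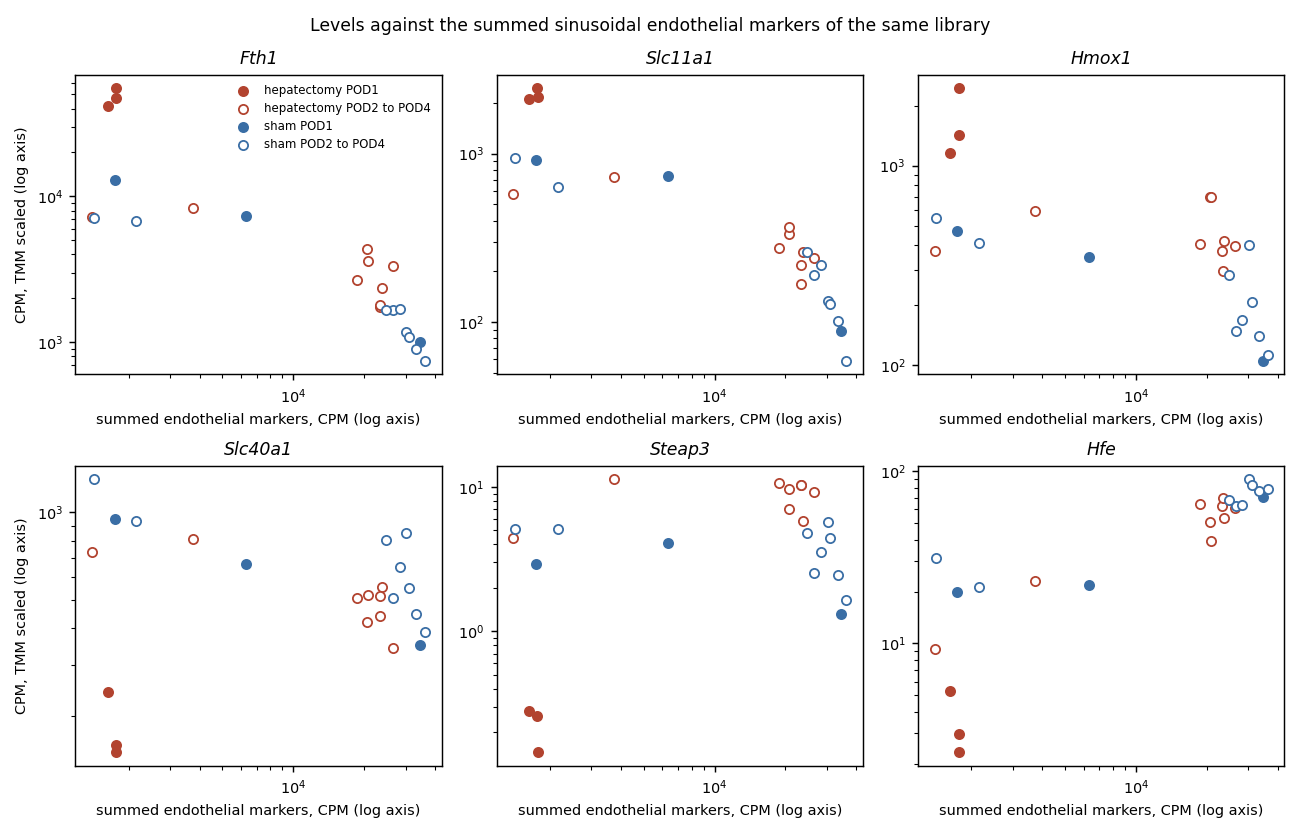
Level of Fth1, Slc11a1, Hmox1, Slc40a1, Steap3 and Hfe (TMM-scaled CPM) against the summed endothelial markers of the same library (CPM). Both axes are log, with 1 point a library, by operation and day. Fth1 and Slc11a1 are higher and Hfe is lower in the 9 libraries at 1400 to 6320 CPM than in the 15 at 18700 to 36300 CPM.

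At POD2 none of the 10 passed an adjusted p of 0.05 by edgeR's quasi-likelihood test, and 0.0977% of all genes did (0.0349% higher and 0.0628% lower). At an unadjusted p under 0.05, 5 of the 10 passed, against 8.87% of all genes. DESeq2 called 1 of the 10 and 1.47% of all genes. Limma voom with quality weights for each library called 8 of the 10 and 32.7% of all genes. The 3 hepatectomy libraries did not overlap the 3 sham libraries in 8 of the 10, against 44.6% of all genes. Tfrc was nearest to a call: 12.1, 14.04 and 12.05 CPM after hepatectomy, against 5.234, 3.587 and 2.262 CPM after sham. Every hepatectomy value was more than any sham value, and the log2 fold change was 1.78 ± 0.35 (adjusted p = 0.0542, edgeR's quasi-likelihood test). DESeq2 called it, at an adjusted p of 0.000246, as did limma voom, at 4.03e-05. By edgeR's quasi-likelihood test it was called with median-of-ratios size factors (adjusted p = 0.0459) and with a 5 CPM filter (0.0448). It was also called without the 4 neutrophil-rich libraries of POD3 and POD4 (0.015). It was not called by library size alone (0.228), with replicate number as a block (0.102) or with no filter (0.0768). Leaving out 1 library gave 0.0211 to 0.42, with Tfrc called in 7 of those fits. Fth1 was at 4357, 2353 and 3630 CPM after hepatectomy and 1173, 904.3 and 748.8 CPM after sham, with a log2 fold change of 1.87 ± 0.85 (adjusted p = 0.538, edgeR's quasi-likelihood test). A fit of that day's 6 libraries by itself called 7 of the 10, Tfrc, Steap4, Slc11a1, Fth1 and Hmox1 higher and Cp and Hfe lower, where 28.9% of the genes it tested were called.

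At POD3 and POD4 none of the 10 passed either, by edgeR's quasi-likelihood test. The share of all genes called was 0.0209% at POD3 and 0% at POD4, and 3 of the 10 at POD3 and 1 at POD4 had an unadjusted p under 0.05, against 7.58% and 4.81% of all genes on those days. DESeq2 called 0 of the 10 on either day, and 2.06% of all genes at POD3 and 0.237% at POD4. Limma voom with quality weights called 5 of the 10 at POD3, where it called 26.4% of all genes. It called 6 at POD4, where it called 50.6%. The libraries did not overlap in 4 of the 10 at POD3, against 17% of all genes, and in 3 of the 10 at POD4, against 5.06%. Tfrc was one of these on both days, at 13.76, 13.14 and 10.13 CPM after hepatectomy and 5.036, 4.501 and 7.777 CPM after sham at POD3. At POD4 it was at 17.45, 13.33 and 15.47 CPM after hepatectomy, against 5.176, 12.36 and 11.06 CPM after sham. Steap3 at POD4 was at 11.27, 10.25 and 10.7 CPM after hepatectomy and 4.396, 5.14 and 5.114 CPM after sham, a log2 fold change of 1.14 ± 0.44. Its 2 groups were each tight and well apart, though the adjusted p was 0.845 by edgeR's quasi-likelihood test.

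Cp at POD3 shows what 1 library can do to a mean. It was at 95.55, 9.801 and 13.66 CPM after hepatectomy, against 7.69, 8.252 and 17.9 CPM after sham. The high value was in hepatectomy POD3 replicate 1, the library where hepatocyte markers summed to 1515 CPM, and without it the log2 fold change was 0.06 in place of 1.81. The part of hepatocyte RNA in that value was not tested.

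**Figure D4:**
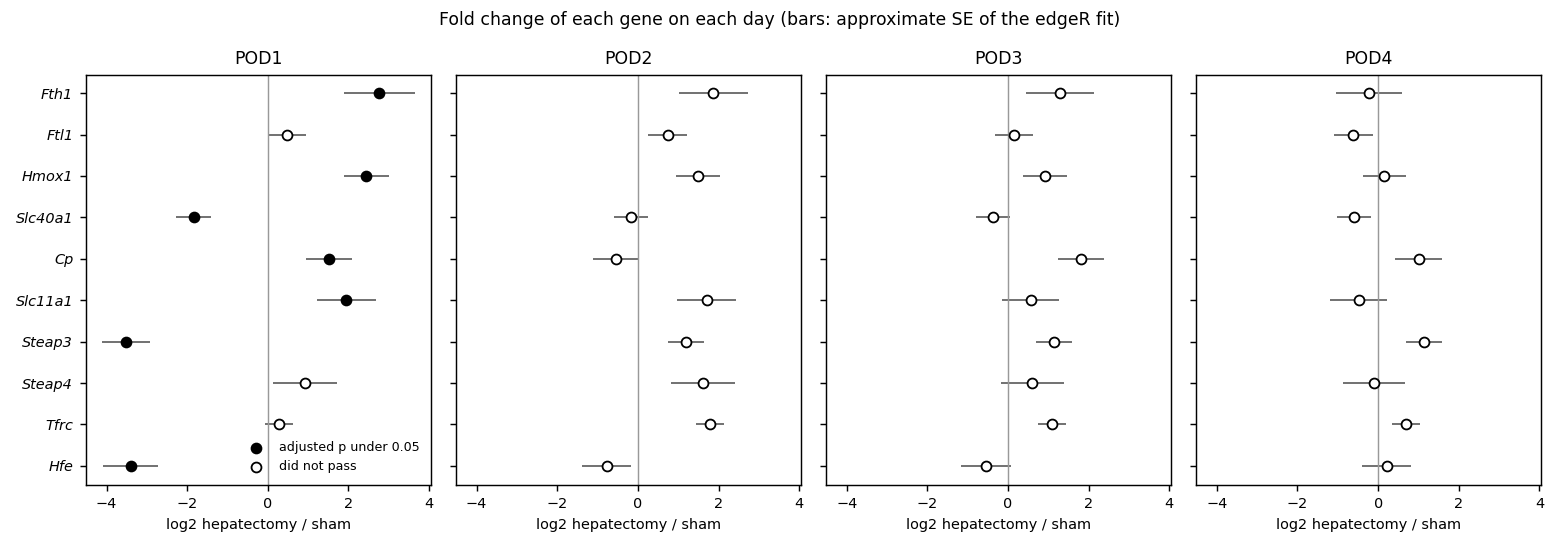
Fitted log2 fold change, hepatectomy over sham, for each of the 10 genes on POD1 to POD4, with bars of 1 SE. Filled points passed an adjusted p of 0.05; 7 genes did so at POD1 and none on the later days.

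Averaged over the 4 days with equal weights, 6 of the 10 passed edgeR's quasi-likelihood test, 4 higher and 2 lower, against 14% of all genes (6.04% higher and 7.99% lower). Tfrc was higher by 0.96 ± 0.17 on the log2 scale (adjusted p = 0.00144, edgeR's quasi-likelihood test), and its 3 hepatectomy libraries lay above the 3 sham libraries on 3 of the 4 days. Hmox1 was higher by 1.25 ± 0.27 (adjusted p = 0.00565), Fth1 by 1.43 ± 0.42 (adjusted p = 0.0301) and Cp by 0.95 ± 0.29 (adjusted p = 0.0329). Slc40a1 was lower, at -0.75 ± 0.21 (adjusted p = 0.0248), and so was Hfe, at -1.13 ± 0.31 (adjusted p = 0.0224). The calls of Cp and Fth1 were less secure: Cp was lost in 10 and Fth1 in 8 of the 24 fits that left out 1 library, Slc40a1 in 1 (sham POD2 replicate 1), and the other 3 in none. Without hepatectomy POD3 replicate 1 the value of Cp was 0.51. The mean over days includes POD1, and it shares those libraries with the POD1 comparison.

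Whether the difference between operations changed over the days was tested as an interaction of operation and day. Steap3 was the 1 gene of the 10 that passed (adjusted p = 0.00163, edgeR's quasi-likelihood test), where 8.68% of all genes passed. Its log2 fold change was -3.53 at POD1 and 1.19, 1.14 and 1.14 on POD2, POD3 and POD4. It was therefore below sham in all 3 hepatectomy libraries at POD1 and above sham in all 3 at POD2 and at POD4, with overlap at POD3. Hfe was next, with an adjusted p of 0.0559, and the other 8 had adjusted p of 0.145 or more by the same test. Without hepatectomy POD3 replicate 1, Hfe (adjusted p = 0.0137) and Cp (adjusted p = 0.0142) passed as well, where 2171 of all genes did. Hfe also passed without hepatectomy POD4 replicate 1 or sham POD1 or POD4 replicate 1. Tfrc passed without sham POD4 replicate 1 (adjusted p = 0.0342), where 4744 of all genes did. With all 24 libraries 1244 genes passed, so both of those counts were higher. A call at POD1 and none later does not show by itself that the effect of the operation differed between days.

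After hepatectomy, POD1 was also set against the mean of POD2 to POD4, a comparison that shares the hepatectomy POD1 libraries with those above. Of the 10 genes 8 passed edgeR's quasi-likelihood test, 5 higher and 3 lower at POD1, where 63.4% of all genes passed (25.4% higher and 38% lower). Fth1 was 3.62 ± 0.61 higher on the log2 scale and Slc11a1 2.67 ± 0.52 higher. Steap3 fell to 5 counts over the 3 POD1 libraries, against 1373 over the 9 later ones, a ratio of 0.0257 with an exact 95% interval of 0.00835 to 0.0602 for counting error only. Ftl1 was higher by 1.22 ± 0.37, a call lost without hepatectomy POD1 replicate 1 (adjusted p = 0.0693, edgeR's quasi-likelihood test), and Cp by 1.22 ± 0.43, lost without hepatectomy POD1 replicate 3 (adjusted p = 0.126). Tfrc differed by -0.07 ± 0.28 (adjusted p = 0.829, edgeR's quasi-likelihood test).

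In sham mice the same comparison called 0 of the 10 by edgeR's quasi-likelihood test, where 0.0279% of all genes passed. An unadjusted p under 0.05 was found in 4 of the 10 and in 12.7% of all genes. DESeq2 called 0 of the 10 and 0.956% of all genes. Limma voom with quality weights called 5 of the 10 and 34.7% of all genes. Without the 4 neutrophil-rich libraries of POD3 and POD4, 6 of the 10 were called, where 26% of all genes were, and without sham POD1 replicate 3 alone, Slc11a1, Fth1 and Ftl1 were called higher at POD1, where 11.8% of all genes in that fit were. Tfrc in sham averaged 10.6 ± 3.56 CPM at POD1, 3.70 ± 1.49 at POD2, 5.77 ± 1.76 at POD3 and 9.53 ± 3.83 at POD4 (SD, n = 3 each).

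Ordered by group mean with TMM scaling, Fth1, Slc11a1, Ftl1, Hmox1, Steap4 and Cp were highest at hepatectomy POD1, and Steap3, Slc40a1 and Hfe were lowest there. By library size alone 3 of these were not highest there: Ftl1 averaged 950.3 CPM at hepatectomy POD1 and 1180 CPM at sham POD1, Steap4 730.8 CPM at hepatectomy POD1 and 937 CPM at hepatectomy POD3, and Cp 19.02 CPM at hepatectomy POD1 and 38.21 CPM at hepatectomy POD3. For Tfrc with TMM scaling all 4 hepatectomy groups ranked above all 4 sham groups, with neighbouring groups overlapping throughout the order. By library size alone Tfrc averaged 6.109 CPM at hepatectomy POD1, below sham POD1 (10.66 CPM), POD3 (7.139 CPM) and POD4 (8.106 CPM). For Steap3 the order ran from hepatectomy POD4, at 10.7 ± 0.515 CPM, through hepatectomy POD3 and POD2 and the 4 sham groups, down to hepatectomy POD1, at 0.228 ± 0.0719 CPM (SD, n = 3 each). Its neighbours separated at 2 places, between hepatectomy POD2 and sham POD4 and between sham POD1 and hepatectomy POD1. Per kilobase of merged exon, the median over the 24 libraries was 870.6 CPM per kb for Fth1, 580.7 for Ftl1, 226.3 for Hmox1, 164.3 for Steap4, 72.28 for Slc11a1 and 57.49 for Slc40a1. It was 16.1 CPM per kb for Hfe, 1.94 for Tfrc, 1.198 for Cp and 0.8115 for Steap3.

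The other genes of iron and heme handling were examined at POD1 in 6 lists. Of the 80 tested, 39 were called by edgeR's quasi-likelihood test, 11 higher and 28 lower. Of all genes, 40.9% were called, 13% higher and 28% lower. The median log2 fold change was -0.47 over the 80 and -0.42 over all genes. Without sham POD1 replicate 3, 18 were called, 6 higher and 12 lower, where 22.6% of all genes were. None of the 80 was called on POD2, POD3 or POD4.

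Heme synthesis had 5 of 11 genes lower and 1 higher, against 28% and 13% of all genes. Fech, the ferrochelatase that puts iron into heme, was at 4.024, 5.584 and 5.842 CPM in the hepatectomy POD1 libraries, against 21, 21.14 and 41.38 CPM in the sham POD1 libraries. The groups were well apart, with a log2 fold change of -2.44 ± 0.32 (adjusted p = 3.95e-05, edgeR's quasi-likelihood test). Urod, an earlier enzyme of the pathway, was lower by a log2 fold change of -1.10 ± 0.17 (adjusted p = 0.000212). The gene that was higher was Alas1, the first and rate-limiting enzyme outside red cells, named after its value was seen: it averaged 394.6 CPM after hepatectomy and 110.6 CPM after sham (log2 fold change 1.84 ± 0.55, adjusted p = 0.0141).

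Heme uptake, export and breakdown had 2 of 12 higher and 3 lower, against 13% and 28% of all genes, with a median log2 fold change of 0.55. Blvrb, a biliverdin reductase, fell to 14.3 ± 2.49 CPM after hepatectomy, against 32.4 ± 9.65 CPM after sham (SD, n = 3 each; log2 fold change -1.18, adjusted p = 0.00461, edgeR's quasi-likelihood test). Slc46a1, a folate and heme transporter, had 8 counts over the hepatectomy POD1 libraries and 402 over the sham POD1 libraries, a ratio of 0.0362 with an exact 95% interval of 0.0155 to 0.072 for counting error only. The 2 higher genes, named after their values were seen, were Hmox2, the constitutive heme oxygenase, at 0.54 ± 0.16, and Nfe2l2, a transcription factor known to induce Hmox1, at 1.31 ± 0.37 on the log2 scale.

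Iron transport had 2 of 15 higher and 5 lower, against 13% and 28% of all genes. Slc22a17, a receptor for the siderophore-binding protein lipocalin 2, had 8 counts over the hepatectomy POD1 libraries and 726 over the sham POD1 libraries, a ratio of 0.02 with an exact 95% interval of 0.00862 to 0.0397 for counting error only. Slc39a8, a zinc, manganese and iron importer, was at 3.894, 2.792 and 5.55 CPM after hepatectomy, against 13.03, 58.07 and 313 CPM after sham, where sham replicate 3 was the library rich in endothelial transcripts; its call was lost without that library (adjusted p = 0.0622, edgeR's quasi-likelihood test). Lcn2, lipocalin 2 itself and also on the neutrophil marker list, averaged 82110 CPM after hepatectomy and 3434 CPM after sham (log2 fold change 4.58 ± 1.53, adjusted p = 0.024); it was named after its value was seen.

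Iron regulation had 2 of 18 higher and 7 lower, against 13% and 28% of all genes. Aco1, whose product is iron regulatory protein 1 when it lacks its cluster, was at 5.322, 7.957 and 5.112 CPM after hepatectomy, against 12.13, 15.51 and 35.76 CPM after sham (log2 fold change -1.79 ± 0.43, adjusted p = 0.00443, edgeR's quasi-likelihood test). Its partner Ireb2, named after its value was seen, went the other way by 0.53 ± 0.18 on the log2 scale (adjusted p = 0.0244). Bmp2, a signal to hepatocytes that raises hepcidin and also on the endothelial list, was at 7.009, 6.84 and 14.6 CPM after hepatectomy and 50.2, 209.7 and 1138 CPM after sham (log2 fold change -5.62 ± 1.31, adjusted p = 0.00373).

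Iron-sulfur cluster assembly had 2 of 19 higher and 7 lower, against 13% and 28% of all genes. Ciapin1, which acts in cytosolic assembly, had the lowest p of any gene in the 6 lists: 149.9, 90.46 and 127.2 CPM after hepatectomy, against 31.11, 28.9 and 30.24 CPM after sham. The sham libraries were nearly equal, and the log2 fold change was 2.03 ± 0.21 (adjusted p = 4.7e-06, edgeR's quasi-likelihood test). Ciao1, another member of the cytosolic machinery, was lower, at 14.3 ± 2.27 CPM after hepatectomy and 24.9 ± 2.84 CPM after sham (SD, n = 3 each; adjusted p = 0.00675). Storage and ferritin turnover had 2 of 5 higher and 1 lower, against the same shares of all genes. Pcbp2, an iron chaperone, had a log2 fold change of 0.68 (adjusted p = 0.0114) that turned to -0.25 by library size alone. Nup153, a protein of the nuclear pore and so a loose member of that list, had a log2 fold change of 1.23 (adjusted p = 0.00573).

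**Figure D5:**
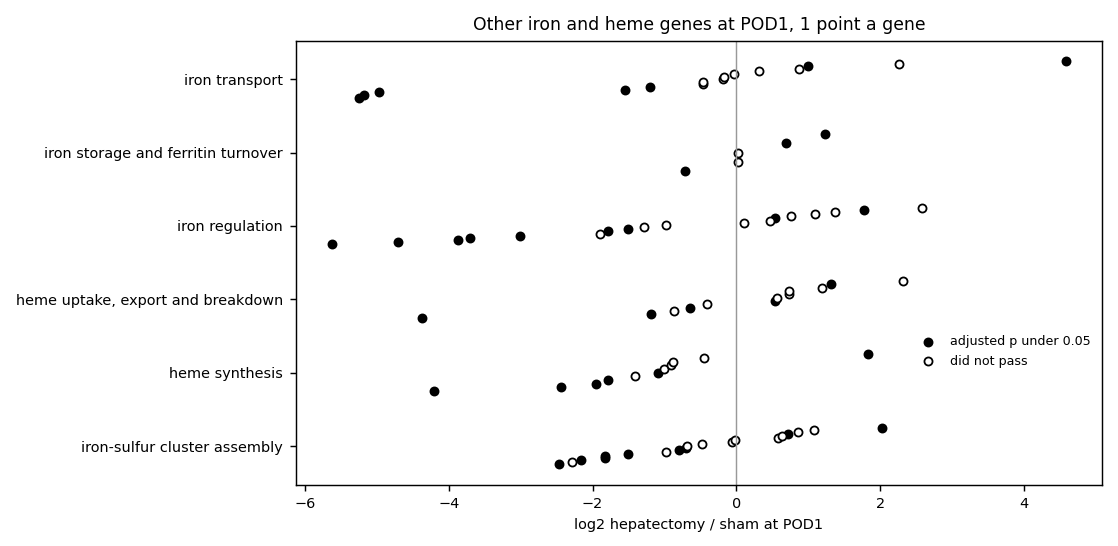
Fitted log2 fold change, hepatectomy over sham at POD1, of 80 other iron and heme genes in 6 lists; each point is 1 gene, and filled points passed an adjusted p of 0.05. Of the 39 filled points, 28 lie to the left of 0 and 11 to the right.

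The genes most like each of the 10 over the 24 libraries were found by the root mean square (RMS) difference of mean-centred log2(CPM + 1), over 12634 genes compared, as a description with no test. Slc11a1 had the nearest neighbour, Cd53, at an RMS difference of 0.155, followed by Slfn2 at 0.188. Nearest to Fth1 were Ehd1 (0.254) and Gk (0.333), and nearest to Hfe were Pygb (0.245) and Wdr91 (0.250). Ftl1 lay nearest to Arl8a (0.260) and Atp6v0c (0.261), and Slc40a1 to Pik3r2 (0.262) and Ctsa (0.292). Steap4 lay nearest to Slc28a2 (0.290) and Tpd52 (0.305), and Steap3 to Colec12 (0.353) and Blnk (0.356). Hmox1 had neighbours at 0.391 (Txnrd1) and 0.466 (Gch1), and Tfrc at 0.437 (St6galnac4) and 0.442 (Slc41a2). Cp had the most distant ones, Hsd17b2 at 0.484 and Bmp8a at 0.487. Within the 10, the closest pair was Slc11a1 and Fth1, at 0.463. These libraries share the marker content described above, which any 2 genes that follow it will also share.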

How the data were processed

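Poly-A RNA of 24 libraries was sequenced. Per the submitters' processing notes, cutadapt, STAR 2.4.2a, HTSeq and the build GRCm38 were used; the annotation release, strand setting and any filter are not given in the sources used here. The authors deposited 1 table of raw counts, a row for each gene symbol, and its values were checked to be whole numbers with unequal totals per library. All 24 columns were mapped to samples by their labels.

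Groups were compared in edgeR 4.0.16 (R 4.3.3) with 1 quasi-likelihood fit of 24 libraries over 8 groups (16 residual degrees of freedom), TMM scaling, filterByExpr, two-sided tests, and Benjamini-Hochberg adjustment over 14325 genes at 0.05. Each SE is approximate: the size of the log2 fold change over √F. A member's CPM divides its counts by the scaled total. The model was also run on simulated counts that held no difference in marker content between libraries. That run therefore does not show how the model does on libraries that differ as these do.

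The 10 members, the 6 iron and heme lists (93 symbols, of which 89 are in the table) and the marker lists were chosen with earlier results of these data known. Lists overlap: Lcn2 and Bmp2, for example, are also marker genes. Named were all 10 members, up to the 2 genes of lowest p among those called in each list on each day, and the 2 genes most like each member. Alternatives were DESeq2 1.42.0, limma voom 3.58.1, other scalings and filters, smaller fits, a replicate block, and leaving out each library. Every voom fit used quality weights for each library. Depth limits counting error only. No pair of replicates was close enough to be the same library deposited again: the lowest chi-square per gene was 9.58.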

Additional observations from a re-analysis of the deposited data

Results flagged for a closer look

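The difference between hepatectomy and sham in Steap3 changed with the day, by the test of the interaction of operation and day (adjusted p = 0.00163, edgeR's quasi-likelihood test with Benjamini-Hochberg adjustment). Steap3 averaged 0.228 CPM after hepatectomy and 2.77 CPM after sham at POD1, 7.50 CPM after hepatectomy and 3.27 CPM after sham at POD2, 7.98 CPM after hepatectomy and 3.63 CPM after sham at POD3, and 10.7 CPM after hepatectomy and 4.88 CPM after sham at POD4. The POD1 value after hepatectomy rests on 5 counts over 3 libraries. The hepatectomy POD1 libraries also had the lowest Kupffer cell and macrophage marker sums of that day, 810.6 to 934.1 CPM against 1951 to 3016 CPM after sham, and their part in the result was not tested.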

How the results depend on the processing

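Over the 8 comparisons, leaving out 1 library in turn and the other alternatives moved counts of calls more than directions. At POD1, Hmox1, Slc40a1, Hfe and Steap3 stayed called in all 33 alternatives. Fth1 was lost in 2, without sham POD1 replicate 3 and in a fit of the 6 POD1 libraries alone (adjusted p = 0.232). That smaller fit called 2404 genes and 16 other iron and heme genes. By library size alone, 610 genes were higher and 8066 lower at POD1, beside 1857 and 4009 with TMM, and the median over all genes was -1.43 in place of -0.421. The replicate numbers were not treated as pairs in the main fit. Deviations of same-numbered hepatectomy and sham libraries correlated at -0.902 to 0.237 over 12 pairs. With marker content differing between replicates, these correlations cannot show whether same-numbered libraries shared handling. With the number as a replicate block, the mean over days lost Fth1 (adjusted p = 0.0504) and Cp (adjusted p = 0.0513), and 1 gene was called at POD3 and 1 in sham POD1 against later days.

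Genes called at POD2 (14) numbered 211 with DESeq2, 4686 with limma voom, 30 with median-of-ratios size factors, 4 by library size alone, 7 with no filter, 23 with a 5 CPM filter, 3802 in the fit of that day and 180 without the 4 late neutrophil-rich libraries. Members called there were 1 with DESeq2, with median-of-ratios, with the 5 CPM filter and without the 4 late libraries, 7 in the fit of that day and 8 with limma voom. At POD3 (3 genes) the counts were 295 with DESeq2, 3776 with voom, 5 by library size alone, 0 in the fit of that day and 157 without the late libraries, with 5 members under voom. At POD4 (0 genes, 689 at an unadjusted p under 0.05) they were 34 with DESeq2, 7250 with voom and 2 with the 5 CPM filter, with 6 members under voom. The mean over days (2009) gave 3337 with DESeq2, 5207 with voom, 3050 by library size alone and 4928 without the late libraries. In sham, POD1 against later days (4) gave 137 with DESeq2, 4968 with voom (5 members), 1 by library size alone, 22 with no filter, 0 in the fit of sham alone and 3911 without the late libraries (6 members). The interaction (1244) gave 3355 with DESeq2 (2 members), 10368 with voom (10 members), 2533 by library size alone (4 members), 673 with no filter and 3762 without the late libraries (3 members). With the 5 CPM filter it called 2 members, and its count of all genes is not given here. The genes tested also differed, at 14325 in the main fit, 27740 with no filter and 10949 with the 5 CPM filter, so these counts are not shares.

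Leaving out 1 library gave 3304 to 6784 genes, 4 to 7 members and 18 to 47 other iron genes at POD1, the lowest each time without sham POD1 replicate 3. It gave 0 to 44 genes and 0 to 1 member at POD2, 0 to 18 genes at POD3, 0 to 3 at POD4, 1482 to 3062 genes and 4 to 7 members for the mean over days, 446 to 4744 genes and 1 to 3 members for the interaction, and 0 to 2575 genes and 0 to 3 members for sham POD1 against later days.

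Directions turned in comparisons a member had not passed, with the exceptions of Pcbp2 at POD1 and of Ftl1 at hepatectomy POD1 against later days. By library size alone, POD1 Tfrc was -0.80, Ftl1 -0.31 and Pcbp2 -0.25, POD4 Steap4 0.20 and Fth1 0.085, the mean over days of Ftl1 -0.035, hepatectomy POD1 against later days -0.047 for Steap4 and -0.013 for Ftl1, and sham POD1 against later days -0.21 for Hmox1. Under voom, POD2 Slc40a1 was 0.073, POD3 Steap4 -0.67 and Ftl1 -0.067, POD4 Hmox1 -0.31, the mean over days 0.033 for Steap3 and -0.099 for Ftl1, and sham Steap3 0.019. Without the late libraries, POD3 Steap4 was -0.72, Slc11a1 -0.13 and Ftl1 -0.079, POD4 Steap4 1.07, Slc11a1 0.94, Fth1 1.04 and Hfe -0.31, the mean of Steap3 0.086 and sham Slc40a1 0.14. Median-of-ratios gave 0.00061 for the mean of Steap3, and hepatectomy Tfrc at POD1 against later days was 0.072 with DESeq2 and 0.071 with median-of-ratios. Leaving out 1 library turned 12 values: POD2 Slc40a1 ranged over -0.39 to 0.25, POD3 Ftl1 -0.079 to 0.24, Slc11a1 -0.13 to 0.87 and Steap4 -0.72 to 0.99, POD4 Fth1 -1.15 to 0.14, Hfe -0.13 to 1.01, Hmox1 -0.15 to 0.48, Slc11a1 -1.19 to 0.097 and Steap4 -1.06 to 0.39, the mean over days of Steap3 -0.10 to 0.15, and sham POD1 against later days Hmox1 -0.19 to 0.66 and Slc40a1 -0.47 to 0.20. The cause of these turns was not tested.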

Other observations

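Averaged over the 4 days, 12 of the 80 other iron and heme genes passed edgeR's quasi-likelihood test, 7 higher and 5 lower after hepatectomy, where 14% of all genes passed. Those named here were chosen after their values were seen. Slc39a14, an importer of iron that is not bound to transferrin, averaged 9.47 CPM after hepatectomy and 4.49 CPM after sham (log2 fold change 1.08 ± 0.19, adjusted p = 0.00108, edgeR's quasi-likelihood test). Steap2, another metalloreductase of the STEAP family, averaged 4.06 CPM after hepatectomy and 1.55 CPM after sham (log2 fold change 1.47 ± 0.40, adjusted p = 0.0198). Hif1a, the hypoxia-inducible factor whose targets include Tfrc and Hmox1, averaged 429.6 CPM after hepatectomy and 193.7 CPM after sham (log2 fold change 1.05 ± 0.29, adjusted p = 0.0229). Of the heme synthesis enzymes, Fech averaged 26.9 CPM after hepatectomy and 35.0 CPM after sham (log2 fold change -0.69 ± 0.15, adjusted p = 0.00573), and Uros 2.82 CPM after hepatectomy and 4.02 CPM after sham (log2 fold change -0.67 ± 0.16, adjusted p = 0.0114). The mean over days includes POD1, where Fech averaged 5.15 CPM after hepatectomy and 27.84 CPM after sham. In the same order, Fech averaged 36.45 and 42.61 CPM at POD2, 32.68 and 40.84 CPM at POD3, and 33.32 and 28.86 CPM at POD4.

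The interaction of operation and day passed in 3 of the 80: Ciapin1 (adjusted p = 0.000668), Fech (adjusted p = 0.0036) and Urod (adjusted p = 0.0135), by edgeR's quasi-likelihood test, where 8.68% of all genes passed.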
